A study of Mus musculus with 24 samples.

Results

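The genes described here are 43 mouse genes of the unfolded protein response and of protein folding in the endoplasmic reticulum (ER), measured in N1E-115 neuroblastoma cells. They were chosen by name, older synonyms included, and each gene was read from its brightest probe. All 43 were among the 27597 genes named on the array, and 42 were among the 16240 genes bright enough to be tested. The exception was Derl3, a derlin of the degradation machinery, whose probe was well above background in 1 of 24 samples. By role the members fall into 5 lists: 11 chaperones of the ER lumen, 11 genes of the calnexin cycle and of disulfide or proline isomerization, 10 genes of ER-associated degradation, 4 translocon genes, and 7 sensors, transcription factors and proteases.

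Secretory and membrane proteins enter the ER through the translocon, fold with the help of chaperones such as Hspa5 (BiP), and are sent to the proteasome by ER-associated degradation when folding fails. Unfolded proteins activate sensors in the ER membrane. Ern1 (IRE1 alpha) splices the Xbp1 mRNA, Atf6 is cut by the proteases Mbtps1 and Mbtps2 to release a transcription factor, and Eif2ak3 (PERK) slows translation and favours synthesis of Atf4. The first and second routes raise chaperone and degradation genes, partly through the ER stress response element (ERSE) in their promoters, and the PERK route raises genes such as Ddit3 and Trib3.

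N1E-115 is a mouse neuroblastoma line with sympathoadrenal features. The study compared untransfected cells (WT) with cells carrying either of a pair of chimeric proteins that join transcobalamin, the cobalamin carrier encoded by Tcn2, to the plant protein oleosin. According to the design text, TO was made by fusion at the N-terminal of transcobalamin and binds cobalamin with high affinity, whereas OT was made at the C-terminal and showed no detectable binding. The 3 lines were kept in proliferation medium (suffix -p, with 10% fetal calf serum) or moved to differentiation medium (suffix -d, with 2.5% serum and 1.25% DMSO), both on DMEM holding 4.5 g/L glucose, which gives 6 groups of 4 samples. All groups share the N1E-115 background, and every TO and OT sample was transfected, so that TO against OT compares cells that each carry a fusion. The labels give neither the promoter of the constructs nor the number of clones, and call the samples biological replicates without saying that they came from separate cultures. The p-values therefore measure the spread between these samples only. In each group the labels' codes of 1 pair of samples differ only by an added letter b, whose meaning is not given. These are cultures measured in bulk, so less RNA per cell and fewer cells with that RNA cannot be told apart.

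Per sample, 54.26% to 65.87% of spots were well above background, and no spot was saturated. The 12 arrays sat on 3 slides, with 2 samples of different dye on each array. All 11 sympathoadrenal markers were well above background in every sample of every group, with mean levels per sample of 11.09 to 11.38 in 5 groups and 11.62 to 11.74 in OT-d. Of markers of other cell types, 4 to 5 of 8 for glia, 1 to 2 of 7 for blood cells or endothelium and 4 to 5 of 8 for fibroblasts and smooth muscle were well above background in all samples of a group. The mean levels of these lists per sample were 6.77 to 7.25, 6.38 to 6.89 and 7.73 to 8.19. Ptprc and Cdh5, defining markers of blood cells and endothelium, were not well above background in any sample, whereas Hba-a1 and, in differentiation medium, Aif1 were so in all. Among the bright markers, group means ran from 11.65 (WT-d) to 13.09 (OT-p) for Acta2, and from 8.13 (OT-p) to 10.82 (WT-d) for Mbp. The Tcn2 probe averaged 8.97 in TO-p, 7.58 in OT-p and 7.9 in WT-p, and 9.55 in TO-d, 9.06 in OT-d and 8.9 in WT-d. Whether this probe reads the fusion transcripts is not known from the labels. Levels below are normalized log2 intensities of a probe and are compared between samples only, never between genes. Called means an adjusted p under 0.05 in limma after Benjamini-Hochberg adjustment over all 16240 genes, and 1 SE follows each change. A fitted change can differ slightly from the difference of group means, because the fit uses the pairing of samples on arrays.

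Promoter sequences of the members were searched for the ERSE, apart from the array data. The motifs were searched on both strands from 250 bases before to 50 bases after the annotated start of each gene, in RefSeq sequences of build GRCm38.p6, and 37 of the 43 members had such a window. The ERSE was searched as CCAAT and CCACG with 9 bases of any kind between them, and its shorter form, ERSE-II, as ATTGG and CCACG with 1 base between them. These members have 43 windows, since some genes have more than 1 annotated start. An ERSE lay in 9 of the 37 members (24.3%), in 9 of their 43 windows (20.9%) and in 39 of all 32851 windows (0.119%). An ERSE-II lay in 2 members (5.41%), 2 of their windows (4.65%) and 12 of all windows (0.0365%). The members were chosen as genes of a response that acts partly through this element. A higher share among them therefore describes the list and is not separate evidence. The windows below run from 250 bases before the start to the base before it, on the strand of the gene, with ERSE and ERSE-II matches in capitals and, in Herpud1, also a match to the site linked to Atf4 that is described after the sequences. They belong to genes whose levels are followed through all comparisons. Of the other genes followed in that way, Xbp1, Ern1, Dnajb9, Sel1l, Sdf2l1 and Pdia4 had a window without either form.
Hspa5, the main ER Hsp70 chaperone, chr2:34771840-34772089, plus strand: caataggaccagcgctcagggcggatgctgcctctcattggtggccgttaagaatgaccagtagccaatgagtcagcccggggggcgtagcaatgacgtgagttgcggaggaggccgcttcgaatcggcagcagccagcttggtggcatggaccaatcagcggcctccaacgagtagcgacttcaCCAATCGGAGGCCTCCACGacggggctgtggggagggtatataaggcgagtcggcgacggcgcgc
Hsp90b1, the ER member of the Hsp90 family, chr10:86705445-86705694, minus strand: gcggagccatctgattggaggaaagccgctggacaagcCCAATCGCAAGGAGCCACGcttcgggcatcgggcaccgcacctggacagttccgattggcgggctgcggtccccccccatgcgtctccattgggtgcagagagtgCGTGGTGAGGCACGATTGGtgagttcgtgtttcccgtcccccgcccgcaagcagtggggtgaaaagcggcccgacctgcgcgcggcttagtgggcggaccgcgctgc
Dnajc3, a J-domain co-chaperone and inhibitor of PERK, chr14:118937682-118937931, plus strand: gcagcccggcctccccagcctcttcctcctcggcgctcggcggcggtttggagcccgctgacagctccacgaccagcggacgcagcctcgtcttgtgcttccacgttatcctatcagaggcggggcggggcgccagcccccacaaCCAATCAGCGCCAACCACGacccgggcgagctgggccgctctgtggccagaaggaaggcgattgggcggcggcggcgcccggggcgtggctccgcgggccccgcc
Creld2, a thiol-disulfide protein induced by ER stress, chr15:88819396-88819645, plus strand: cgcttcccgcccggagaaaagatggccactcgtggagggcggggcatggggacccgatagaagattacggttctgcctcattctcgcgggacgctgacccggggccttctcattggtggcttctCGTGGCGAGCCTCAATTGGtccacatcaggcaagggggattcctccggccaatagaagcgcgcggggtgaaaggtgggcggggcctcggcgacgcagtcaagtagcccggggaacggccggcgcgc
Calr (calreticulin), a lectin chaperone, chr8:84846932-84847181, minus strand: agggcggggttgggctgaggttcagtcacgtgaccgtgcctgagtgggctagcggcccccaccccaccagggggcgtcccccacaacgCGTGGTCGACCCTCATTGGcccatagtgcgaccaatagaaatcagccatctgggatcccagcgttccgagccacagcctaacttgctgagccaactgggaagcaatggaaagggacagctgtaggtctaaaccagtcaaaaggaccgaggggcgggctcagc
Herpud1, an ER membrane protein of the degradation complex, chr8:94386179-94386428, plus strand: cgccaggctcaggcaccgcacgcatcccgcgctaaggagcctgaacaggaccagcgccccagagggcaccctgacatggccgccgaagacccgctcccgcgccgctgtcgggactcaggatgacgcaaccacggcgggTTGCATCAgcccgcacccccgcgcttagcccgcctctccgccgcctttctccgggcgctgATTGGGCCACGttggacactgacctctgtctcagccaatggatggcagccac

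With the first transcribed base counted as 0, the ERSE of Hspa5 began at -65, that of Dnajc3 at -105 and that of Calr at -162, the last on the opposite strand. Hsp90b1 held an ERSE on each strand. The ERSE of Creld2 lay on the opposite strand and that of Herpud1 was of the second form. The other members with a match were Canx, Pdia6, Syvn1, Derl3 and, with an ERSE-II just after its start, Dnajb11. Parts of the element were far more common. CCACG lay in 30 of the 37 members (81.1%), in 32 of their 43 windows (74.4%) and in 32.8% of all windows, and CCAAT in 27 members (73%), 29 of their windows (67.4%) and 37.4% of all windows. The core TGACGTGG of another element linked to Atf6 and Xbp1 lay in 1 member, Txndc5, and in 0.676% of windows. TGATGCAA, a composite site linked to Atf4, lay in Herpud1 alone among members, on the opposite strand from -112 to -105, and in 0.895% of windows. A match describes these letters in this window and is not a measured binding site.

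**Figure D1:**
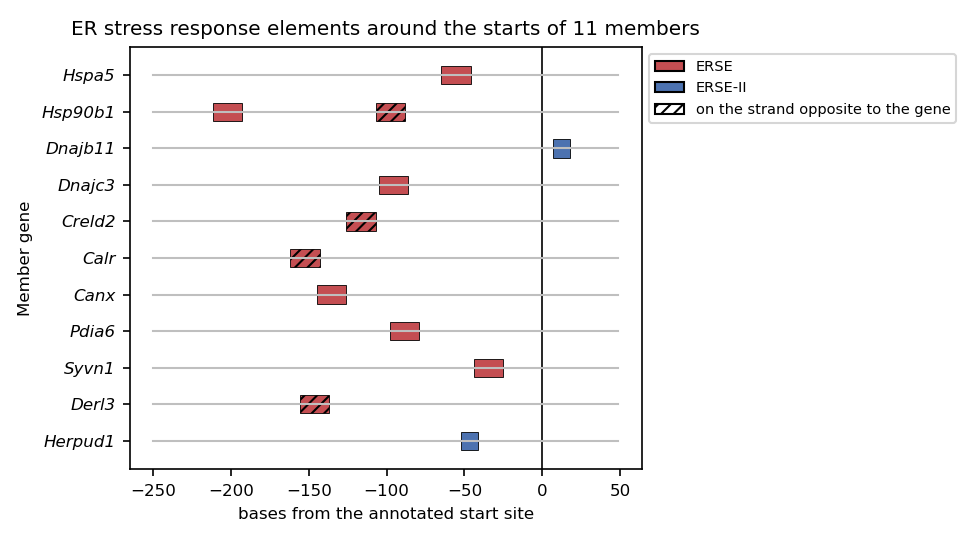
Positions of ERSE (red) and ERSE-II (blue) matches in the 11 members that hold one, in bases from the annotated start site (horizontal axis, 250 bases before to 50 after). Hatching marks matches on the strand opposite to the gene; all but the match of Dnajb11 lie before the start.

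TO and OT carry fusions that differ in cobalamin binding, and were compared within each medium. In differentiation medium 20 of 42 members were higher and 4 lower in TO-d relative to OT-d, with a median change of 0.26 against -0.02 over all genes. The higher ones were 8 of 11 isomerases and calnexin cycle genes, 5 of 11 lumen chaperones, 4 of 9 tested degradation genes and 3 others. In proliferation medium 17 members were higher and 10 lower, with a median of 0.12 against 0.02. In TO-d against OT-d, 57.1% of members and 39.7% of all genes were called, the latter made up of 18.9% higher and 20.8% lower. In TO-p against OT-p the share of members called, 64.3%, was nearer to that of all genes, 56% (29.8% higher and 26.2% lower). Within the slides that held both groups, the median of the members was 0.25 and 0.21 for TO-d against OT-d and 0.01, 0.25 and 0.03 for TO-p against OT-p. Such within-slide medians, here and below, are differences of group means without the dye term, and on some slides the groups differed in dye. The 4 samples of each group did not overlap for 26 of 42 members in TO-d against OT-d (41.8% of all genes) and for 21 in TO-p against OT-p (50%). Of the 11 sympathoadrenal markers, 1 was higher and 8 were lower in TO-d relative to OT-d (median -0.39), and 3 were higher and 4 lower in TO-p relative to OT-p. Markers of other cell types moved as well. Both tested blood markers were higher in TO in both media, Hba-a1 by 1.67 and 0.43 and Aif1 by 0.37 and 0.74 in proliferation and differentiation medium. Of 6 tested fibroblast and smooth muscle markers 3 were higher and 1 lower in TO-p, and 3 higher and 2 lower in TO-d, with Col1a1 at 1.62 and 1.07, Pdgfrb at 1.61 and 0.78 and Col1a2 at -0.72 and -0.6. Of 5 tested glial markers 1 was higher and 1 lower in TO-p and 3 were lower in TO-d. The part of all these markers in the members' values was not tested.

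**Figure D2:**
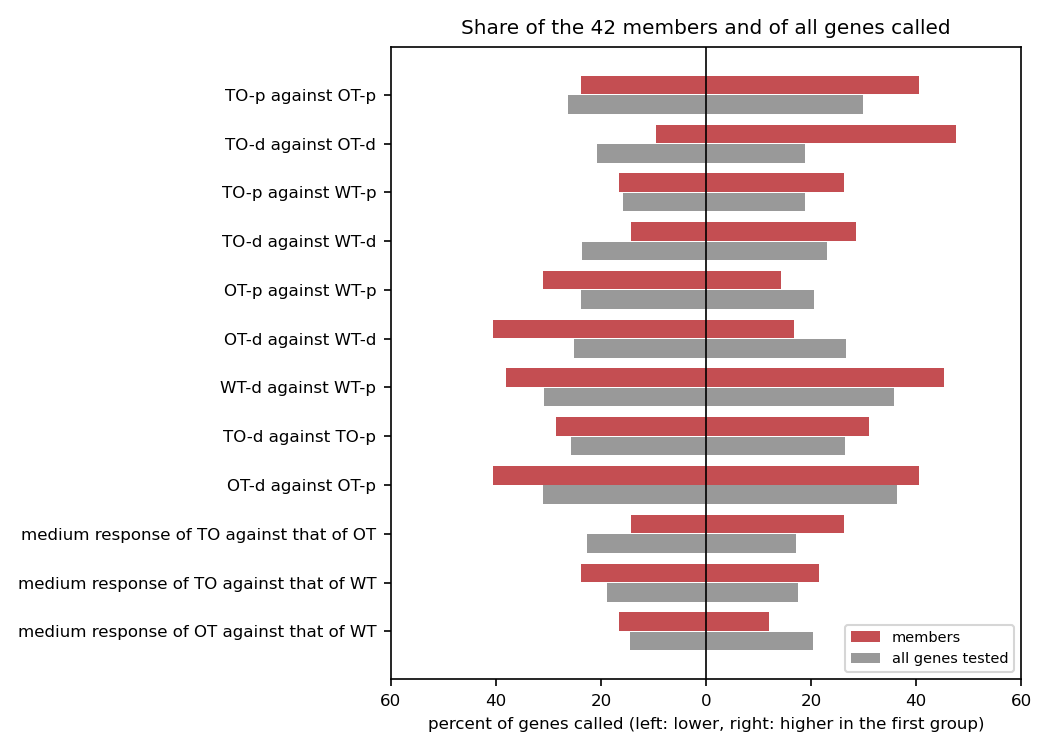
Percent of the 42 tested members (red) and of all 16240 genes tested (grey) called lower (left) or higher (right) in the first group of each comparison, adjusted p under 0.05. In TO-d against OT-d the members' bar is longer than that of all genes on the higher side (18.9% of all genes) and shorter on the lower side (20.8%).

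Among chaperones of the lumen, 5 of 11 were higher and 1 lower in TO-d relative to OT-d (median 0.3), whereas in proliferation medium 1 was higher and 3 were lower (median -0.04). Hspa5 stood at 15.33, 15.37, 15.05 and 15.38 in the TO-d samples and at 14.8, 14.63, 14.64 and 14.76 in the OT-d samples. All TO-d samples lay above all OT-d samples, and the fitted change was 0.64 ± 0.0833 (1.55-fold, adjusted p = 2e-06). In proliferation medium the Hspa5 samples overlapped, at 14.67 to 14.92 in TO-p and 14.58 to 14.74 in OT-p (change 0.16, adjusted p = 0.0871). Hsp90b1, whose clients include secreted and surface proteins, read 16.02, 15.73, 15.57 and 16.04 in TO-d and 14.97, 15.14, 15.1 and 15.22 in OT-d. The groups were apart by 0.74 ± 0.108 (1.67-fold, adjusted p = 8.1e-06), and a second Hsp90b1 probe gave 0.82. In proliferation medium the change of Hsp90b1 was -0.1 (adjusted p = 0.43). Sdf2l1, a partner of the J-domain protein Dnajb11, was higher in both media, by 0.61 ± 0.134 (1.53-fold, adjusted p = 0.000428) in TO-p and by 0.59 ± 0.142 (1.51-fold, adjusted p = 0.0019) in TO-d. Its samples overlapped in proliferation medium, where TO-p 1 at 11.32 lay below OT-p 3 at 11.46, and were apart in differentiation medium, at 10.54 to 10.98 against 10 to 10.21.

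Several co-chaperones took other courses. Dnajc3 was lower in TO-p, at 10.54, 10.35, 9.95 and 10.52 against 11.23, 11.29, 11.21 and 11.28 in OT-p. The OT-p samples lay within a narrow band above all TO-p samples, and the change was -0.9 ± 0.125 (1.86-fold, adjusted p = 2.17e-06). In differentiation medium Dnajc3 did not pass the test (0.33, adjusted p = 0.0564). Dnajb11 was called in opposite directions in the 2 media, lower in TO-p by 0.33 (change -0.33, adjusted p = 0.0013) and higher in TO-d (0.37, adjusted p = 0.00157), a pattern that 5.67% of all genes showed. Creld2 was lower in TO-p relative to OT-p (-0.51 ± 0.0992, adjusted p = 0.000135), at 13.86 to 14.28 against 14.42 to 14.56, and was not called in differentiation medium (0.19, adjusted p = 0.164). Dnajc10, a J-domain protein with reductase activity, was lower in TO-d relative to OT-d, at 8.29 to 8.5 against 9.23 to 9.5 (-0.92 ± 0.0814, adjusted p = 6.34e-09), with no call in proliferation medium (-0.04, adjusted p = 0.659). Hyou1, an Hsp70-like exchange factor of Hspa5, was higher in TO-d (0.3, adjusted p = 0.00696). Manf, a secreted neurotrophic factor held in the ER by Hspa5, gave 0.17 in both media (adjusted p = 0.0827 and 0.118). Hspa13, an Hsp70-like ATPase, and Dnajb9, a co-chaperone that restrains Ern1, were not called in either medium (adjusted p from 0.16 to 0.98).

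**Figure D3:**
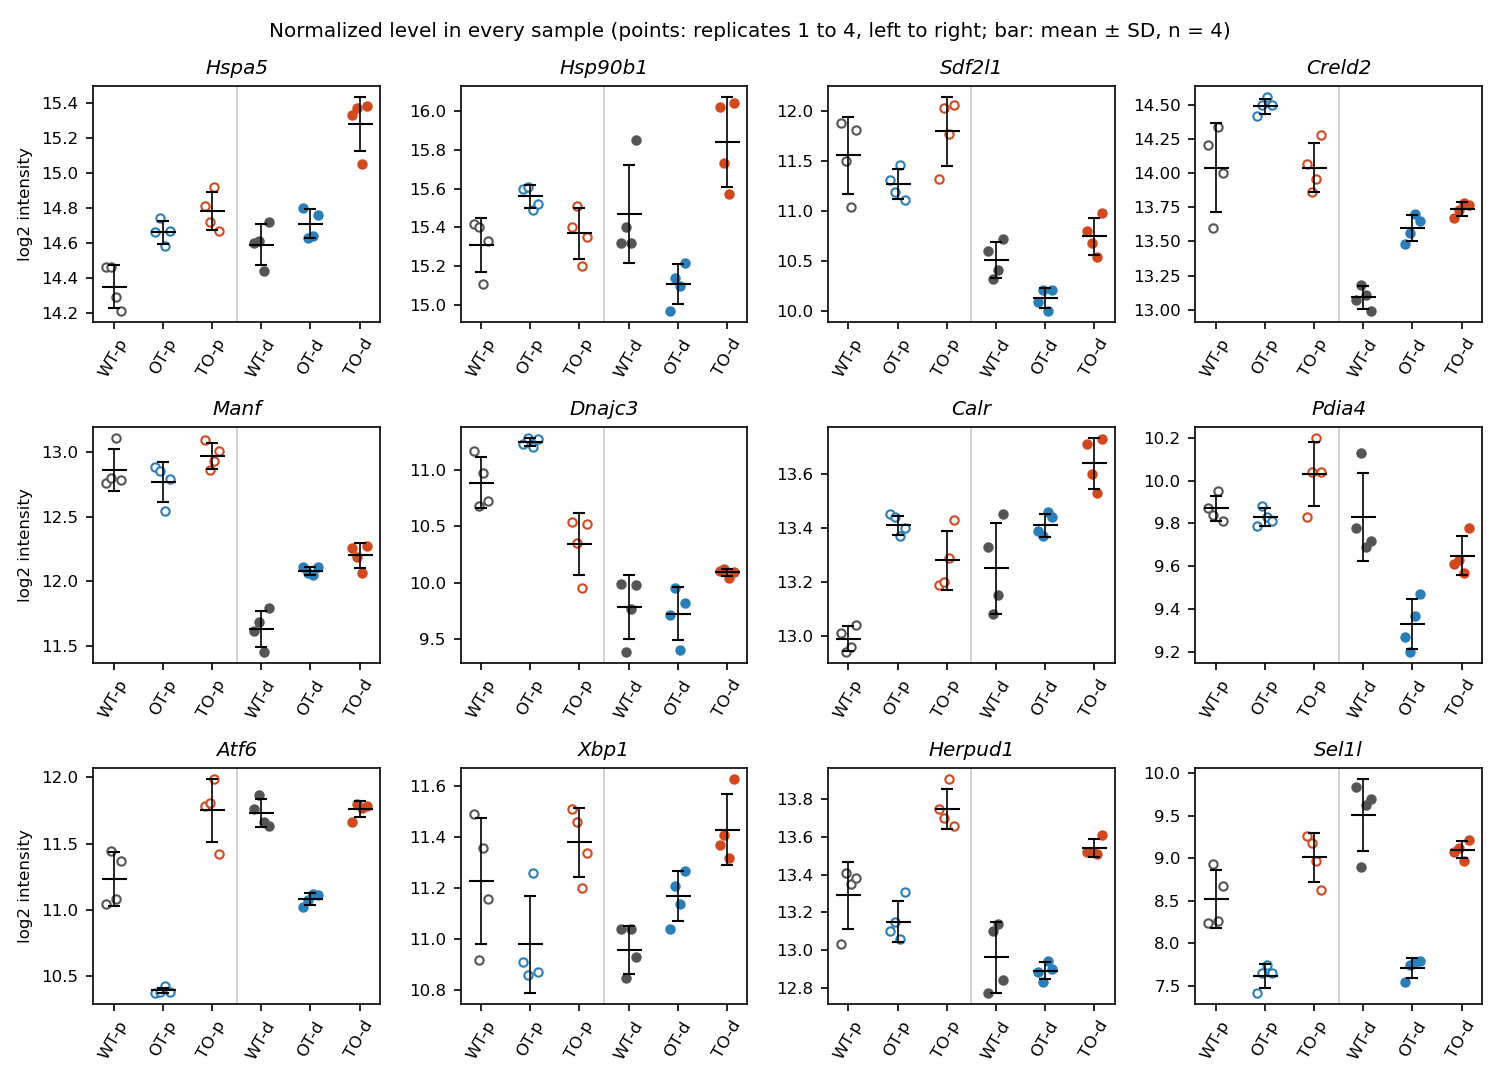
Normalized log2 intensity (vertical axis) of 12 members in every sample of the 6 groups, open circles for proliferation and filled circles for differentiation medium, replicates 1 to 4 from left to right; bars are means ± SD, n = 4. The means of Hspa5, Hsp90b1 and Calr are highest in TO-d, and those of Atf6 and Sel1l lowest in OT-p and OT-d.

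Of the 11 genes of the calnexin cycle and isomerases, 6 were higher and 2 lower in TO-p relative to OT-p (median 0.46), and 8 were higher and 1 lower in TO-d relative to OT-d (median 0.33). Pdia5, a protein disulfide isomerase, read 11.3, 11.49, 11.35 and 11.11 in TO-p against 10.65, 10.66, 10.79 and 10.65 in OT-p. No samples overlapped in either medium, and the changes were 0.7 ± 0.102 (adjusted p = 4e-06) in proliferation and 0.52 ± 0.109 (adjusted p = 0.000527) in differentiation medium. Txndc5 and Pdia6, further oxidoreductases, were higher in TO by 0.61 and 0.48 in proliferation medium and by 0.33 and 0.43 in differentiation medium. On their second brightest probes Txndc5 gave 0.17 in both media (adjusted p = 0.161 and 0.217) and Pdia6 gave 0.08 in TO-p (adjusted p = 0.274), without a call. Ppib, a cyclophilin, was higher by 0.46 (adjusted p = 1.24e-05) and 0.33 (adjusted p = 0.00157). Canx (calnexin), a membrane-bound lectin chaperone, was higher by 0.58 in TO-p (adjusted p = 5.82e-06) and by 0.26 in TO-d (adjusted p = 0.029). Calr, Pdia3, the disulfide isomerase that works with both lectins, and Pdia4 were called in differentiation medium, with changes of 0.26, 0.36 and 0.4, of which that of Calr was not called on its second probe (0.28, adjusted p = 0.087). In proliferation medium their changes were -0.11, 0 and 0.19 (adjusted p = 0.222, 0.985 and 0.0643). P4hb, the classical disulfide isomerase, was higher in TO-p (0.57, adjusted p = 0.0152). Its TO-d and OT-d samples spread from 12.18 to 13.47 and were not called (0.35, adjusted p = 0.188). Erp44, which retrieves proteins to the ER, was lower in both media (-0.22 and -0.25). Fkbp2, a proline isomerase, was lower in TO-p (-0.55, adjusted p = 7.42e-06).

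Among 9 tested genes of ER-associated degradation, 5 were higher and 1 lower in TO-p relative to OT-p (median 0.3), and 4 were higher in TO-d relative to OT-d (median 0.14). Sel1l, the adaptor of the ubiquitin ligase Syvn1, had the largest positive change of all members in both media. It read 9.26, 9.18, 8.97 and 8.62 in TO-p against 7.41, 7.65, 7.74 and 7.65 in OT-p, and 9.07, 9.12, 8.97 and 9.21 in TO-d against 7.54, 7.74, 7.78 and 7.79 in OT-d. Every TO sample lay above every OT sample of its medium, with changes of 1.49 ± 0.178 (2.8-fold, adjusted p = 2.59e-07) and 1.24 ± 0.19 (2.36-fold, adjusted p = 1.54e-05). A further Sel1l probe gave 0.67 and 1.01, and the dimmest of the 3 gave 0.1 and 0.06 (adjusted p = 0.545 and 0.767). Syvn1 itself was not called (0.09 and -0.11, adjusted p = 0.241 and 0.185). Herpud1 read 13.75, 13.7, 13.91 and 13.66 in TO-p against 13.1, 13.15, 13.06 and 13.31 in OT-p, and 13.51 to 13.61 in TO-d against 12.83 to 12.94 in OT-d. The groups were apart in both media, by 0.57 ± 0.0829 (1.48-fold, adjusted p = 4.18e-06) and 0.67 ± 0.0883 (1.6-fold, adjusted p = 2.02e-06). Derl1, a channel component, was higher by 0.46 and 0.41, but its probes disagreed: the second brightest gave -0.06 in proliferation medium (adjusted p = 0.557), and in differentiation medium the others gave 0.37, 0.09 and -0.24. The mannosidase-like Edem1 and Edem2 were higher in TO-p (0.3 and 0.52) and Edem3 in TO-d (0.45, adjusted p = 0.00143), while Derl2 was lower in TO-p (-0.36, adjusted p = 0.000798; another probe 0.18). Os9, a lectin that recognizes trimmed glycans, was not called (0.04 and -0.07, adjusted p = 0.85 and 0.748).

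Of the 4 translocon genes, 1 was higher and 3 were lower in TO-p, and 1 was higher and 2 lower in TO-d. Sec61b, a subunit of the channel, read 15.3, 15.17, 15.3 and 15.29 in TO-p against 15.57 to 15.8 in OT-p, and 15.31 to 15.41 in TO-d against 16.05 to 16.13 in OT-d. The groups were apart, with changes of -0.39 ± 0.059 (adjusted p = 5.87e-06) and -0.71 ± 0.0629 (adjusted p = 5.82e-09). Ssr3, of the translocon-associated complex, was also lower (-0.31 and -0.52), and its partner Ssr1 was higher (0.23 and 0.52). Sec61a1, the pore, was lower in TO-p (-0.26, adjusted p = 0.0339), where 1 TO-p sample was left out as an outlier spot.

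Atf6 showed one of the widest gaps between the lines. Its samples read 11.78, 11.81, 11.99 and 11.42 in TO-p against 10.37, 10.38, 10.42 and 10.38 in OT-p, and 11.66, 11.8, 11.77 and 11.78 in TO-d against 11.02, 11.07, 11.12 and 11.11 in OT-d. No sample overlapped, with changes of 1.38 ± 0.101 (2.6-fold, adjusted p = 1.6e-10) and 0.64 ± 0.108 (1.56-fold, adjusted p = 5.07e-05), and a second Atf6 probe gave 0.7 and 0.75. Creb3l2, a membrane-bound transcription factor cut in a like manner, read 11.52 to 11.91 in TO-p against 10.43 to 10.59 in OT-p, and 12.64 to 13.02 in TO-d against 11.94 to 12.14 in OT-d. Its changes were 1.31 ± 0.128 (adjusted p = 1.28e-08) and 0.81 ± 0.136 (adjusted p = 4.78e-05). Xbp1, read by a probe that gives 1 level with no separate value for the spliced form, was higher in TO-p (0.39 ± 0.0928, adjusted p = 0.00109). In TO-d it was not called (0.23, adjusted p = 0.0692), although its samples did not overlap those of OT-d. Ern1 gave 0.01 and 0.18 (adjusted p = 0.924 and 0.0638), and Wfs1, an ER membrane protein mutated in Wolfram syndrome, 0.04 and 0.14 (adjusted p = 0.659 and 0.157). The 2 proteases of Atf6 differed in TO-p against OT-p, where Mbtps1 was higher (0.18, adjusted p = 0.0398) and Mbtps2 lower (-0.86 ± 0.108, adjusted p = 5.23e-07). The Mbtps2 probe was dim, well above background in 19 of 24 samples. Against WT in proliferation medium, neither change of Mbtps2 described below was called on its second probe.

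In both media 12 members were called higher in TO than in OT (28.6% of members, 11.9% of all genes), namely Atf6, Canx, Creb3l2, Derl1, Herpud1, Pdia5, Pdia6, Ppib, Sdf2l1, Sel1l, Ssr1 and Txndc5, of which Derl1, Pdia6 and Txndc5 were not called in TO-p on their second brightest probe. Erp44, Sec61b and Ssr3 were called lower in both (7.14% of members, 9.46% of all genes). Some calls depended on single samples. In TO-p against OT-p the call of Erp44 was lost without TO-p 1 (-0.18, adjusted p = 0.0545) and that of P4hb without TO-p 2 (0.49, adjusted p = 0.061). The call of Sec61a1 was lost without any of 5 samples, OT-p 1, 2 or 4, TO-p 1 or OT-d 2 (adjusted p up to 0.256), and that of Mbtps1 without any of 10 (adjusted p up to 0.123). In TO-d against OT-d, Calr lost its call without TO-d 1 or TO-d 4 (0.22 to 0.23, adjusted p up to 0.0636), Txndc5 without TO-d 4 (0.24, adjusted p = 0.0678) and Canx without any of 5 samples, OT-d 1 or 2, TO-d 1 or 4 or TO-p 2 (adjusted p up to 0.16).

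**Figure D4:**
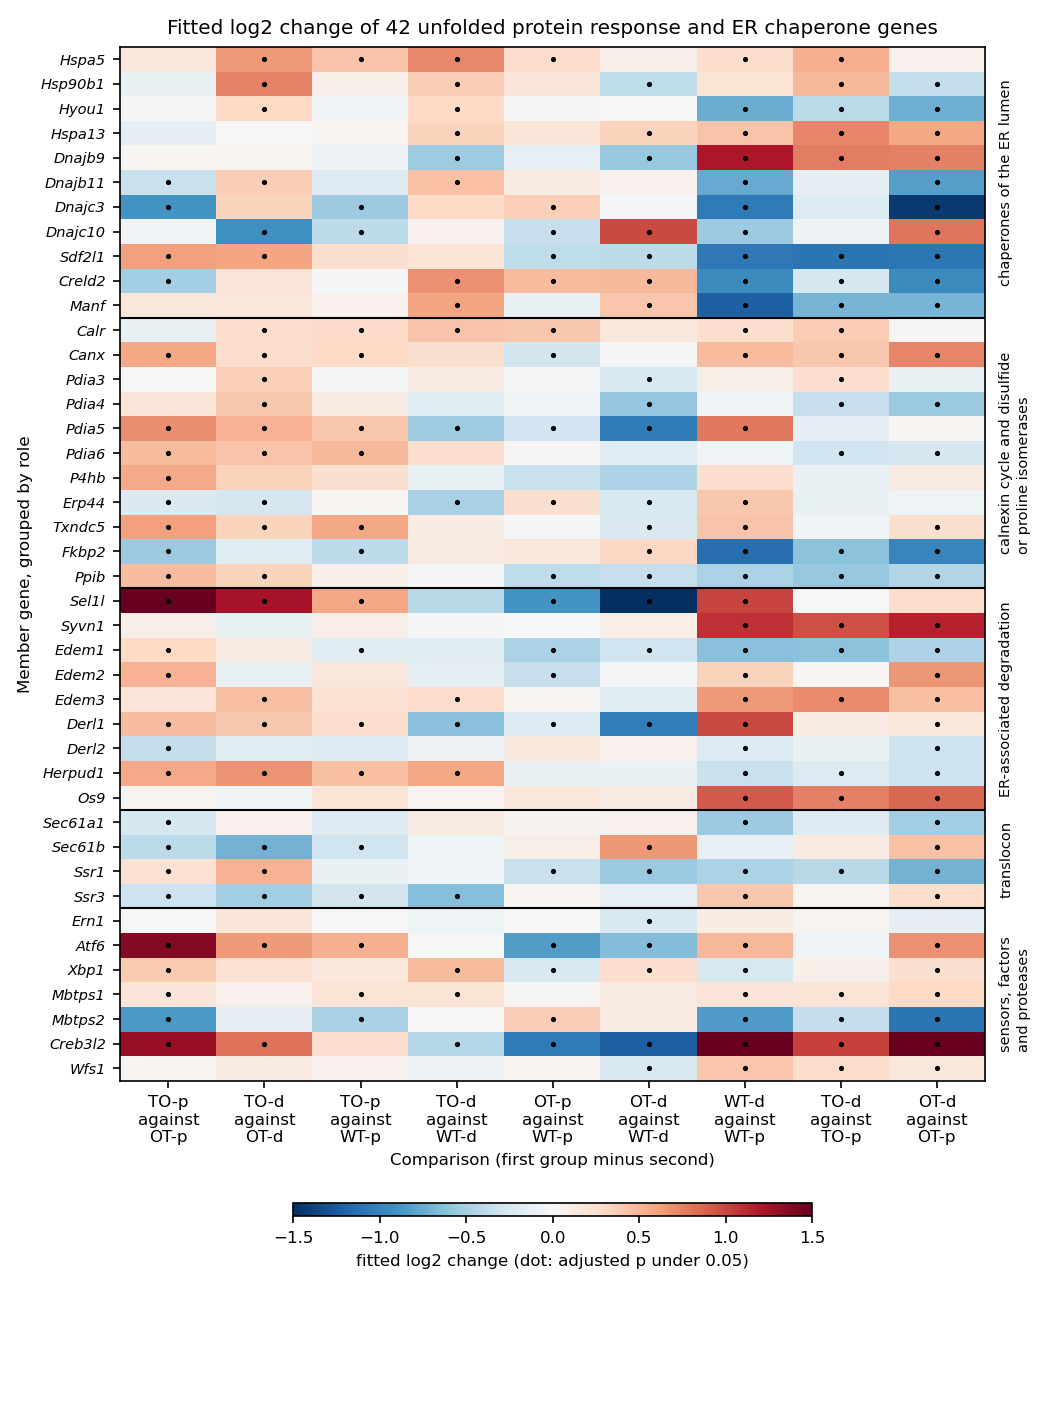
Fitted log2 change (colour; red higher and blue lower in the first group) of the 42 tested members in 9 pairs of groups, in blocks by role; dots mark adjusted p under 0.05, and changes beyond 1.5 in size are drawn in the end colours. The columns of TO against OT hold 17 and 20 higher members, those of OT against WT 13 and 17 lower ones.

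TO was next set against untransfected cells. The chaperones Hspa5 and Calr, Herpud1 and the protease Mbtps1 were called higher in TO than in WT in both media (4 members, 9.52%, against 7.51% of all genes), and Ssr3 alone was called lower in both (2.38% against 5.61%). In proliferation medium 11 members were higher and 7 lower, 42.9% of members against 34.7% of all genes (18.9% higher, 15.8% lower), with a median change of 0.09 against 0.01. In differentiation medium 12 were higher and 6 lower, again 42.9%, against 46.6% of all genes (23% higher, 23.6% lower), with a median of 0.05 against -0.03. These comparisons share their TO samples with the ones above. With arrays scaled by loess alone the split was 7 higher and 7 lower in TO-p and 17 and 2 in TO-d, and with the scanner software's processed signals it was 10 and 8 in TO-d. All genes shifted under loess alone too, with 39.5% of their calls higher in TO-p and 75.4% in TO-d. With the processed signals 45.5% of all calls were higher in TO-d. Within slides the members' median was -0.04, 0.25 and 0.04 in proliferation and 0.02 and 0.1 in differentiation medium. The groups did not overlap for 13 members in TO-p against WT-p (20.8% of all genes) and for 16 in TO-d against WT-d (40.8%). Markers of other cell types differed here as well. Mean levels in TO-p and WT-p were 9.2 and 7.93 for Hba-a1, 9.19 and 7.86 for Col1a1, and 8.59 and 9.06 for Mbp. In TO-d and WT-d they were 9.53 and 10.82 for Mbp and 12.23 and 11.65 for Acta2. The part of these markers in the members' values was not tested.

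Among lumen chaperones, 7 of 11 were higher and 1 lower in TO-d relative to WT-d (median 0.33), whereas in TO-p 1 was higher and 2 were lower. Hspa5 read 14.81, 14.72, 14.92 and 14.67 in TO-p against 14.46, 14.46, 14.29 and 14.21 in WT-p, and 15.05 to 15.38 in TO-d against 14.6, 14.61, 14.44 and 14.72 in WT-d. The groups were apart in both media, with changes of 0.43 ± 0.0748 (1.35-fold, adjusted p = 0.00011) and 0.72 ± 0.0884 (1.65-fold, adjusted p = 1.09e-06). Creld2 read 13.67, 13.73, 13.78 and 13.77 in TO-d against 13.07, 13.18, 13.11 and 12.99 in WT-d (0.68 ± 0.112, adjusted p = 4.38e-05), and in TO-p its change was -0.03 (adjusted p = 0.877). Manf read 12.26, 12.19, 12.06 and 12.27 in TO-d against 11.61, 11.68, 11.45 and 11.79 in WT-d (0.59 ± 0.0924, adjusted p = 2.11e-05), with 0.07 in TO-p (adjusted p = 0.533). For both genes all TO-d samples lay above all WT-d samples. Dnajb11, Hspa13 and Hyou1 were higher in TO-d by 0.44, 0.33 and 0.3, and Hsp90b1 by 0.37 (adjusted p = 0.0121), with WT-d 4 at 15.85 inside the TO-d range and a second probe at 0.41 that was not called (adjusted p = 0.0664). Dnajb9 was lower in TO-d, at 10.21 to 10.55 against 10.81 to 11.06 (-0.53 ± 0.0956, adjusted p = 0.000114). Dnajc3 and Dnajc10 were lower in TO-p (-0.54 ± 0.12 and -0.39 ± 0.0731, adjusted p = 0.0012 and 0.000223). Sdf2l1 was not called (0.24 and 0.21, adjusted p = 0.162 and 0.273).

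Isomerases were higher in TO-p relative to WT-p for 5 of 11 genes, with 1 lower. Txndc5 read 10.45 to 10.71 in TO-p against 9.83, 9.82, 9.88 and 10.07 in WT-p (0.58 ± 0.0819, adjusted p = 1.01e-05). Pdia6 was higher by 0.49 (adjusted p = 0.000148), Pdia5 by 0.41, Canx by 0.3 and Calr by 0.29 (0.18 on its second probe, adjusted p = 0.242), and Fkbp2 was lower (-0.39, adjusted p = 0.000711). In TO-d against WT-d 1 isomerase gene was higher and 2 lower. Calr read 13.71, 13.6, 13.53 and 13.73 in TO-d against 13.33, 13.08, 13.15 and 13.45 in WT-d, with no overlap (0.43 ± 0.0829, adjusted p = 0.000249), while its second probe gave 0.19 (adjusted p = 0.27). Pdia5 turned to lower in TO-d (-0.53 ± 0.116, adjusted p = 0.000725), at 11.18 to 11.27 against 11.59 to 11.95, and Erp44 was lower (-0.49, adjusted p = 2.76e-05), with a second Erp44 probe at 0.17 (adjusted p = 0.108). Pdia4 was not called in either medium (0.12 and -0.18, adjusted p = 0.279 and 0.134).

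Degradation genes numbered 3 higher and 1 lower in TO-p and 2 higher and 1 lower in TO-d. Herpud1 was higher in both, by 0.45 ± 0.0793 (adjusted p = 0.000125) and 0.58 ± 0.0937 (adjusted p = 3.33e-05), its TO-p samples at 13.66 to 13.91 above WT-p at 13.03 to 13.41 and its TO-d samples at 13.51 to 13.61 above WT-d at 12.77 to 13.14. Derl1 was higher in TO-p (0.25) and lower in TO-d (-0.63 ± 0.075, adjusted p = 7.69e-07), at 13.24 to 13.31 against 13.72 to 14.03 in WT-d. Neither change of Derl1 was called on its second brightest probe (-0.01 and 0.11, adjusted p = 0.92 and 0.334). Sel1l was higher in TO-p (0.58, adjusted p = 0.0102; second probe 0.18, adjusted p = 0.124), where the WT-p samples spread from 8.23 to 8.93, and was not called in TO-d (-0.42, adjusted p = 0.0935). Ssr3 was lower in both media (-0.28 ± 0.0698 and -0.64 ± 0.0825, adjusted p = 0.00301 and 2.04e-06), and Sec61b in TO-p (-0.3, adjusted p = 0.000259). Among sensors and factors, Atf6 was higher in TO-p (0.53 ± 0.097, adjusted p = 0.000176) with TO-p 4 at 11.42 below WT-p 2 at 11.44, its second probe gave 0.09 (adjusted p = 0.326), and its change in TO-d was -0.01 (adjusted p = 0.953). Xbp1 was higher in TO-d, at 11.37, 11.41, 11.32 and 11.63 against 11.04, 10.85, 11.04 and 10.93 in WT-d (0.48 ± 0.105, adjusted p = 0.000761), with 0.16 in TO-p (adjusted p = 0.185). Creb3l2 was lower in TO-d (-0.43, adjusted p = 0.0186), and Mbtps2 lower in TO-p (-0.49, adjusted p = 0.000813; second probe -0.02, adjusted p = 0.821). Ern1 was not called (0 and -0.06, adjusted p = 0.972 and 0.562).

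Against untransfected cells too, some calls of TO depended on 1 sample. In TO-p the call of Canx was lost without TO-p 1 (0.25, adjusted p = 0.0661) and that of Sel1l without TO-p 1 or WT-p 3 (0.42, adjusted p up to 0.121). Mbtps1 lost its call without any of 6 samples (adjusted p up to 0.116), and Edem1, lower by 0.17 (change -0.17, adjusted p = 0.0499), without any of 15 (adjusted p up to 0.18), and its second probe gave 0.06 (adjusted p = 0.777). In TO-d the call of Hsp90b1 was lost without TO-d 1, TO-d 4 or WT-d 2 (0.29 to 0.31, adjusted p up to 0.0726) and that of Creb3l2 without WT-d 2 or WT-d 4 (adjusted p up to 0.0619). Mbtps1 lost its call without any of 7 samples (adjusted p up to 0.167) and Edem3 (0.28) without any of 10 (adjusted p up to 0.162).

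OT, whose fusion had no detectable cobalamin binding, was set against untransfected cells in the same way. In proliferation medium 6 members were higher and 13 lower, 45.2% of members against 44.2% of all genes (20.5% higher, 23.8% lower), with a median change of -0.01 against -0.02. In differentiation medium 7 were higher and 17 lower, 57.1% against 51.7% (26.6% higher, 25.1% lower), with a median of -0.11 against -0.02. With both directions pooled, the shares called were close to those of all genes. By direction, most called members were lower in OT, whereas the calls of all genes were nearly even. With loess alone the splits were 3 and 14 in OT-p and 7 and 10 in OT-d, and with the processed signals 9 higher and 12 lower in OT-p. All genes shifted under loess alone too, with 30.7% of their calls higher in OT-p and 62.2% in OT-d. With the processed signals 51.2% of all calls were higher in OT-p. Within slides the members' median was -0.03, -0.03 and 0.02 in proliferation medium and -0.04 on the 1 slide that held both OT-d and WT-d. On that slide WT-d 2 carried Cy5 and OT-d 3 and 4 carried Cy3, so line and dye cannot be told apart there. The other WT-d samples sat on slide 1 and the other OT-d samples on slide 2, so OT-d against WT-d is largely confounded with slide. Groups did not overlap for 17 members in OT-p against WT-p (34% of all genes) and 21 in OT-d against WT-d (39.8%). These comparisons share their OT and WT samples with those above. The sympathoadrenal markers also moved in OT-d, where 7 of 11 were higher than in WT-d. Markers of other cell types differed too. Mean levels in OT-d and WT-d were 9.21 and 10.49 for Pdgfrb, 9.93 and 10.82 for Mbp, and 12.31 and 11.65 for Acta2. The part of these markers in the members' values was not tested.

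In both media 9 of 42 members were lower in OT (21.4%, against 10.9% of all genes): Atf6, Creb3l2, Derl1, Edem1, Pdia5, Ppib, Sdf2l1, Sel1l and Ssr1. Sel1l, read at 7.41 to 7.74 in OT-p and 7.54 to 7.79 in OT-d, lay below WT-p at 8.23, 8.93, 8.26 and 8.67 and WT-d at 9.84, 8.89, 9.63 and 9.7. Its changes were -0.9 ± 0.161 (1.87-fold, adjusted p = 9.21e-05) and -1.66 ± 0.179 (3.16-fold, adjusted p = 8.98e-08). Atf6 in OT, at the values given above, lay below WT-p at 11.04, 11.44, 11.08 and 11.37 and WT-d at 11.76, 11.87, 11.66 and 11.63, with changes of -0.84 ± 0.0918 (adjusted p = 1.65e-07) and -0.65 ± 0.102 (adjusted p = 1.44e-05). Creb3l2 was lower by the most in OT-p among members (-1.06 ± 0.116, adjusted p = 1.71e-07) and lower in OT-d (-1.24 ± 0.129, adjusted p = 4.94e-08). Pdia5 was lower in OT-d, at 10.41, 10.6, 10.89 and 10.68 against 11.95, 11.64, 11.59 and 11.89 in WT-d (-1.05 ± 0.103, 2.07-fold, adjusted p = 2.09e-08). Derl1 was lower in OT-d at 12.81 to 13.01 against 13.72 to 14.03 (-1.04 ± 0.0666, adjusted p = 3.33e-11), on its brightest probe. The second brightest gave 0.02 there and 0.05 in OT-p (adjusted p = 0.85 and 0.657). Edem1 was lower in OT-p (-0.47 ± 0.0622, adjusted p = 2.32e-06) and in OT-d (-0.3, adjusted p = 0.00104). Sdf2l1 gave -0.38 and -0.39 (adjusted p = 0.0148 and 0.0197).

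Creld2 was the only member called higher in OT in both media (2.38% of members, 10.9% of all genes). It read 14.42, 14.5, 14.56 and 14.5 in OT-p against 14.21, 13.6, 14.34 and 14 in WT-p, and 13.48, 13.56, 13.7 and 13.65 in OT-d against 12.99 to 13.18 in WT-d. Neither pair overlapped, with changes of 0.48 ± 0.0899 (adjusted p = 0.000141) and 0.49 ± 0.0997 (adjusted p = 0.000312). Dnajc10 was lower in OT-p (-0.35 ± 0.0692, adjusted p = 0.000274; second probe -0.15, adjusted p = 0.159) and higher in OT-d, at 9.5, 9.24, 9.47 and 9.23 against 8.23, 8.52, 8.39 and 8.3 (0.99 ± 0.0768, 1.98-fold, adjusted p = 6.84e-10). Sec61b was higher in OT-d at 16.05 to 16.13 against 15.35 to 15.56 (0.65 ± 0.0593, adjusted p = 7.04e-09), and not called in OT-p (0.09, adjusted p = 0.171). Manf was higher in OT-d, at 12.05 to 12.11 against 11.45 to 11.79 (0.42 ± 0.0821, adjusted p = 0.000201). Calr was higher in OT-p, at 13.37 to 13.45 against 12.94 to 13.04 (0.4 ± 0.0664, adjusted p = 4.53e-05), and Hspa5 was higher there (0.27 ± 0.0708, adjusted p = 0.00348). In OT-d the changes of Calr and Hspa5 were 0.17 and 0.08 (adjusted p = 0.0611 and 0.401). Dnajc3 and Mbtps2 were higher in OT-p (0.36 and 0.37), and Hspa13 and Fkbp2 in OT-d (0.33 and 0.31). Second probes of Mbtps2 and Fkbp2 gave 0.13 and 0.15 (adjusted p = 0.0506 and 0.0527).

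Hsp90b1 was lower in OT-d relative to WT-d, at 14.97 to 15.22 against 15.32, 15.4, 15.32 and 15.85 (-0.38 ± 0.102, adjusted p = 0.00374), and gave 0.19 in OT-p (adjusted p = 0.0918). Pdia4 was lower in OT-d at 9.2 to 9.47 against 9.69 to 10.13 (-0.58 ± 0.0861, adjusted p = 7.17e-06), Dnajb9 was lower there (-0.57 ± 0.085, adjusted p = 8.07e-06), and so was Ern1 (-0.24 ± 0.072, adjusted p = 0.00753). Xbp1 was called lower in OT-p (-0.23, adjusted p = 0.0309) and higher in OT-d (0.25, adjusted p = 0.0286). Both calls of Xbp1 rested on single samples, since the first was lost without any of OT-p 1, 2 or 4 or WT-p 1 or 3 (adjusted p up to 0.208) and the second without OT-d 2 or 4 or WT-d 2 or 4 (adjusted p up to 0.128). Herpud1 was not called (-0.11 and -0.1, adjusted p = 0.235 and 0.336). Erp44 was higher in OT-p (0.24) and lower in OT-d (-0.23), where another Erp44 probe gave 0.9. In OT-p the calls of Canx and Mbtps2 were lost without WT-p 2 (adjusted p = 0.0672 and 0.0536), those of Dnajc3 and Pdia5 without WT-p 2 or OT-p 4 (adjusted p up to 0.135 and 0.0925), and that of Sdf2l1 without WT-p 1 or WT-p 4 (adjusted p up to 0.0828). In OT-d the calls of Erp44 and Wfs1 were lost without WT-d 4 (adjusted p = 0.0529 and 0.0601), that of Sdf2l1 without WT-d 4 or OT-d 3 (adjusted p up to 0.0868), that of Pdia3 without any of 3 samples, OT-d 3, WT-d 2 or WT-d 4 (adjusted p up to 0.137), and that of Txndc5 without any of 6 (adjusted p up to 0.141; second probe 0.09, adjusted p = 0.465).

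The change of medium moved members in both directions in every line. Of 11 lumen chaperones and partners, 7 fell and 3 rose in both WT and OT, and 4 fell and 4 rose in TO. Syvn1 and Dnajb9 and, on their brightest probes only, Os9 and Creb3l2 were called higher in all lines. In WT, 19 members rose and 16 fell, 83.3% of members against 66.6% of all genes (35.8% higher, 30.8% lower), with a median change of 0.15 against 0.06. In OT, 17 rose and 17 fell, 81% against 67.3% (36.3% higher, 31% lower), with a median of 0.02 against 0.04. In TO, 13 rose and 12 fell, 59.5% against 52.2% (26.4% higher, 25.7% lower), with a median of -0.04 against 0. With loess alone the split was 9 and 18 in WT and 11 and 17 in OT, where 37.8% and 50.5% of the calls of all genes were higher. Within slides the members' median was 0.09 and 0.06 in WT, -0.11 and -0.04 in OT, and -0.05, -0.03 and -0.03 in TO. Groups did not overlap for 29 members in WT (51.3% of all genes), 32 in OT (62.5%) and 25 in TO (46.8%). Markers of other cell types also changed with the medium in WT, OT and TO. The glial marker Mbp changed by 1.74, 1.81 and 0.89 and the smooth muscle marker Acta2 by -1.27, -0.75 and -0.82. Pdgfrb changed by 1.43, 1.46 and 0.64 and Aif1 by 1.13, 0.78 and 1.15. Their part in the members' values was not tested.

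In all 3 lines 9 of 42 members rose (21.4%, against 17.6% of all genes): Canx, Creb3l2, Dnajb9, Edem3, Hspa13, Mbtps1, Os9, Syvn1 and Wfs1. Creb3l2 rose most, from 11.3, 11.97, 11.26 and 11.83 in WT-p to 13.07, 13.4, 13.22 and 13.28 in WT-d, with no overlap (1.69 ± 0.136, 3.23-fold, adjusted p = 2.77e-10). It rose by 1.51 in OT and 1.02 in TO on this probe, while the other Creb3l2 probe gave -0.55 in TO (adjusted p = 0.00542) and -0.14 in OT (adjusted p = 0.425). Syvn1 rose by 1.09 ± 0.0648, 1.17 ± 0.0582 and 0.97 ± 0.0612 in WT, OT and TO (adjusted p = 1.81e-12, 3.98e-14 and 6.43e-12). Its samples lay at 13.32 to 13.84 in proliferation and 14.47 to 14.9 in differentiation medium, apart in each line. Dnajb9 rose from 9.52 to 9.9 in WT-p to 10.81 to 11.06 in WT-d (1.21 ± 0.0901, 2.32-fold, adjusted p = 7.12e-11), and by 0.76 in OT and 0.77 in TO. Os9 rose by 0.92, 0.86 and 0.75 (adjusted p = 1.36e-05, 6.61e-06 and 0.000114; second probe in WT 0.21, adjusted p = 0.257), and TO-p 1 at 11.45 lay far below the other TO-p samples at 12.32 to 12.42. The rises of Edem3 were 0.64, 0.45 and 0.71, those of Hspa13 0.43, 0.58 and 0.73. Canx rose by 0.47, 0.73 and 0.41 on its brightest probe, but another Canx probe was called in the opposite direction in WT (-0.22) and OT (-0.39). Mbtps1 rose by 0.19 in WT, 0.3 in OT and 0.2 in TO, and another of its probes gave -0.3 in WT. Its call was lost in WT without WT-d 2 or 3 or WT-p 1, 2 or 3 (adjusted p up to 0.286) and in TO without TO-d 1 or TO-p 2 (adjusted p up to 0.113). The rises of Wfs1 were 0.42, 0.17 and 0.27, and that in OT was lost without any of 7 samples (adjusted p up to 0.122).

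In all 3 lines 10 of 42 members fell (23.8%, against 16.6% of all genes): Creld2, Edem1, Fkbp2, Herpud1, Hyou1, Manf, Mbtps2, Ppib, Sdf2l1 and Ssr1. Sdf2l1 fell by nearly the same amount in each line, from 11.88, 11.5, 11.04 and 11.81 in WT-p to 10.6, 10.32, 10.41 and 10.72 in WT-d (-1.07 ± 0.142, 2.1-fold, adjusted p = 7.19e-07). In OT its change was -1.08 and in TO -1.1, with no overlap in any line. Manf went from 12.76, 12.8, 13.11 and 12.78 in WT-p to 11.61, 11.68, 11.45 and 11.79 in WT-d (-1.22 ± 0.087, 2.33-fold, adjusted p = 3.72e-11) and by -0.7 in both OT and TO. Creld2 changed by -0.96 in WT and OT (adjusted p = 4.23e-08 and 5.57e-09) and by -0.26 in TO (adjusted p = 0.0345), where the call was lost without any of 5 samples, TO-d 1, 3 or 4 or TO-p 1 or 4 (adjusted p up to 0.113). Hyou1 changed by -0.75, -0.73 and -0.41, and Fkbp2 by -1.13, -0.99 and -0.61 in WT, OT and TO. Edem1 fell from 11.03 to 11.27 in WT-p to 10.48 to 10.59 in WT-d (-0.63 ± 0.0731, adjusted p = 8.94e-08) and by similar amounts in OT (-0.46) and TO (-0.62). Ppib changed by -0.47, -0.44 and -0.57. For Ssr1, at -0.48, -0.71 and -0.42, a dimmer probe was called in the opposite direction in WT (0.43) and TO (0.31). Herpud1 changed by -0.33 in WT and -0.31 in OT (adjusted p = 0.00238 and 0.00137). Its change in TO, -0.2 (adjusted p = 0.046), lost its call without any of 14 samples (adjusted p up to 0.118). Mbtps2 changed by -1.09 in OT. Its probe was well above background in 1 of 4 WT-d and 2 of 4 TO-d samples. Its falls in WT and TO are therefore limited by the background, and the lines cannot be ranked by them.

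**Figure D5:**
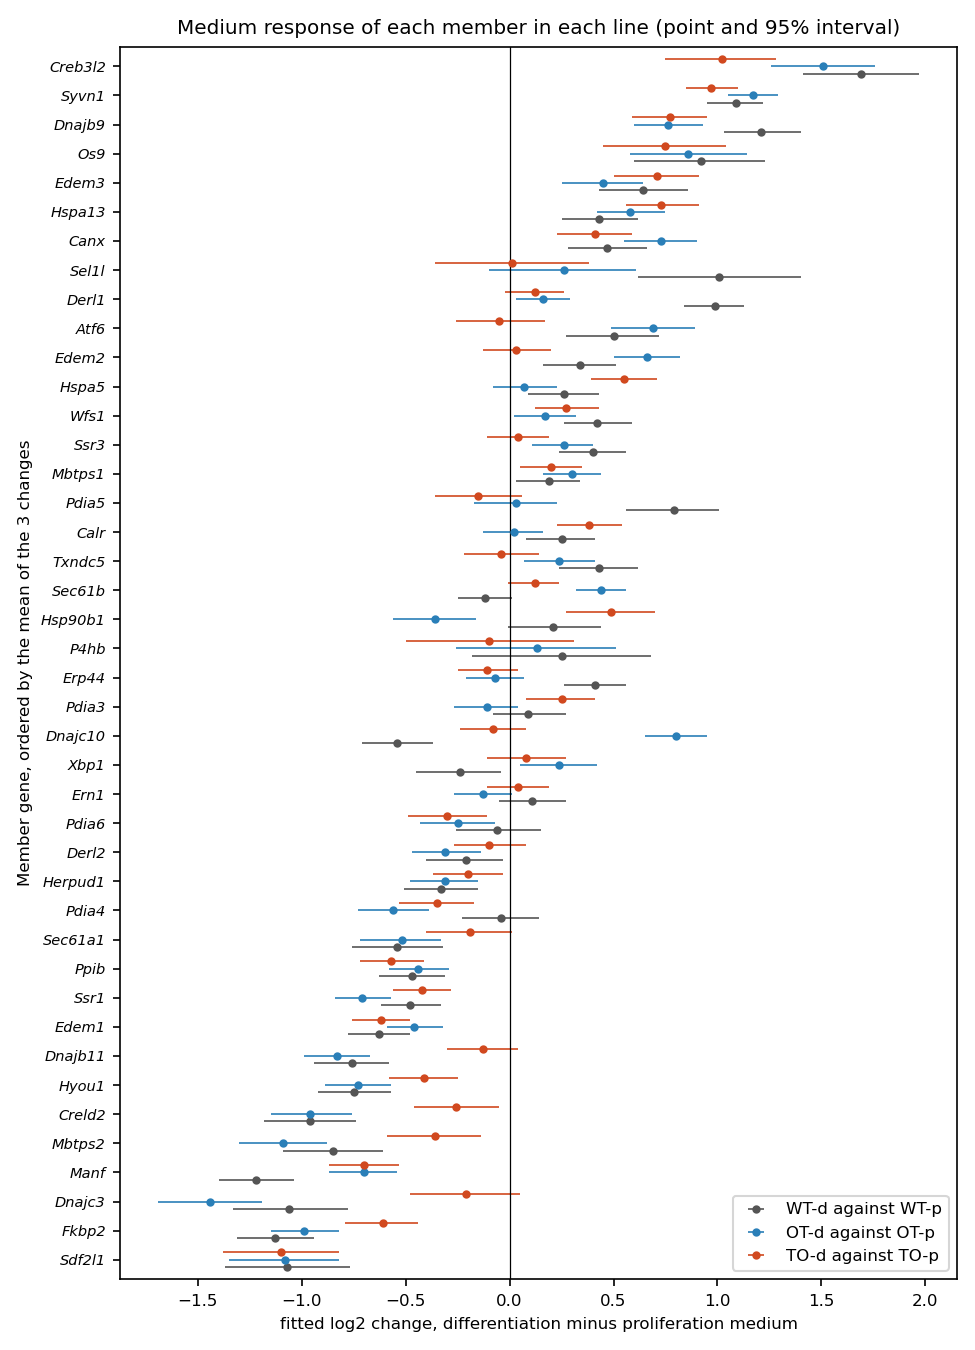
Fitted log2 change from proliferation to differentiation medium (horizontal axis; points, with 95% intervals as bars) of each tested member in WT (grey), OT (blue) and TO (orange-red), ordered by the mean of the 3 changes. By that mean Creb3l2, on its brightest probe, and Syvn1 rise most and Sdf2l1 falls most, and the points of Dnajc3, Dnajc10, Sel1l, Pdia5 and Derl1 are spread between lines.

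Other members changed in some lines. Dnajc3 fell in WT, from 11.17, 10.68, 10.98 and 10.73 to 9.99, 9.38, 9.76 and 9.98 (-1.06 ± 0.134, adjusted p = 3.38e-07). It fell in OT from 11.21 to 11.29 to 9.4 to 9.95 (-1.44 ± 0.12, 2.71-fold, adjusted p = 2.83e-10), and was not called in TO (-0.21, adjusted p = 0.166). Dnajb11 changed in the same way, by -0.76 in WT and -0.83 in OT, with -0.13 in TO (adjusted p = 0.19). Hspa5 rose in TO, from 14.67 to 14.92 to 15.05 to 15.38 with no overlap (0.55 ± 0.0786, 1.46-fold, adjusted p = 3.12e-06). In WT its call (0.26, adjusted p = 0.00847) was lost without WT-d 4 (0.18, adjusted p = 0.0836), and in OT it was not called (0.07, adjusted p = 0.406). Calr rose in TO (0.38 ± 0.0737, adjusted p = 0.000118) and in WT (0.25), the latter lost without WT-d 4 (0.16, adjusted p = 0.101), and gave 0.02 in OT (adjusted p = 0.831). Hsp90b1 rose in TO (0.49 ± 0.102, adjusted p = 0.000311), fell in OT (-0.36 ± 0.0967, adjusted p = 0.00245) and was not called in WT (0.21, adjusted p = 0.0842). Pdia4 fell in OT (-0.56) and TO (-0.35) and gave -0.04 in WT (adjusted p = 0.679).

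Sel1l rose in WT (1.01 ± 0.19, 2.02-fold, adjusted p = 6.42e-05), with WT-d 2 at 8.89 below WT-p 2 at 8.93, and was not called in OT (0.26, adjusted p = 0.194) or TO (0.01, adjusted p = 0.972). Derl1 rose in WT from 12.87 to 12.93 to 13.72 to 14.03 (0.99 ± 0.0706, 1.98-fold, adjusted p = 3.74e-11), was at 0.16 in OT, a call lost without any of 6 samples (adjusted p up to 0.102), and at 0.12 in TO (adjusted p = 0.152). The second Derl1 probe gave 0.08 in WT and 0.06 in OT (adjusted p = 0.41 and 0.544). Pdia5 rose in WT (0.79 ± 0.109, adjusted p = 1.19e-06) and gave 0.03 in OT and -0.15 in TO (adjusted p = 0.809 and 0.244). Dnajc10 rose in OT from 8.39 to 8.6 to 9.23 to 9.5 (0.8 ± 0.0731, adjusted p = 1.41e-09), fell in WT (-0.54 ± 0.0814, adjusted p = 4.42e-06; second probe -0.1, adjusted p = 0.392) and gave -0.08 in TO (adjusted p = 0.443). Atf6 rose in WT (0.5, adjusted p = 0.000324) and OT (0.69, adjusted p = 1.22e-06) on its brightest probe, with -0.05 in TO (adjusted p = 0.749). A second Atf6 probe was called in the opposite direction, at -0.36 in WT and -0.37 in OT, so the medium response of Atf6 differs by probe. Xbp1 was called lower in WT-d (-0.24, adjusted p = 0.0352) and higher in OT-d (0.24, adjusted p = 0.0221). The first call was lost without WT-d 2 or 4 or WT-p 1 or 3 (adjusted p up to 0.142) and the second without OT-d 4 or OT-p 2 (adjusted p up to 0.136). In TO the change of Xbp1 was 0.08 (adjusted p = 0.512), and Ern1 was not called in any line (adjusted p from 0.104 to 0.663). Edem2 rose in WT (0.34) and OT (0.66), Ssr3 in WT (0.4) and OT (0.26), although another Ssr3 probe gave -0.53 in OT. Sec61b rose in OT (0.44, adjusted p = 3.26e-07), and Sec61a1 fell in WT (-0.54) and OT (-0.52), each with 1 sample left out. Txndc5 rose in WT (0.43) and OT (0.24), and Erp44 in WT (0.41). On second probes these were not called, at -0.08 and -0.1 for Txndc5 (adjusted p = 0.545 and 0.376) and 0.16 for Erp44 (adjusted p = 0.0767). Pdia6 fell in OT (-0.25) and TO (-0.3; second probe -0.04, adjusted p = 0.636), the former lost without OT-d 4 or OT-p 2 (adjusted p up to 0.111). Derl2 fell in OT (-0.31) and in WT (-0.21, lost without any of 6 samples, adjusted p up to 0.176), while another Derl2 probe gave 0.68 and 0.54. Pdia3 rose in TO (0.25), a call lost without TO-d 4, TO-p 1 or TO-p 2 (adjusted p up to 0.132). P4hb was not called in any line (adjusted p from 0.29 to 0.728), and its WT-d samples spread from 12.43 to 13.89.

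The difference between the medium responses of 2 lines was tested as a contrast of its own. Of 11 lumen chaperones, 6 were called higher in TO and 1, Dnajc10, lower against OT (median 0.32), and 6 higher and 1, Dnajb9, lower against WT (median 0.34), with 4 not called in each. Over all members, 11 were higher and 6 lower in TO against OT (40.5% of members, 39.9% of all genes, of which 17.2% higher and 22.7% lower), and 9 higher and 10 lower in TO against WT (45.2% and 36.3%, of which 17.5% higher and 18.8% lower). Between OT and WT, 5 were higher and 7 lower (28.6% and 34.7%, of which 20.3% higher and 14.5% lower). With loess alone these splits were 13 and 3, 16 and 3, and 6 and 3. Under that setting 54.8%, 81.4% and 81.2% of the calls of all genes were higher. With quantile scaling the first was 11 and 3, and with the processed signals the last was 4 and 10. Of all calls, 46.8% and 52.4% were higher in those 2 cases. The contrasts share samples with each other and with the pairs above.

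Dnajc3 had the largest positive difference between TO and OT, 1.22 ± 0.182 (adjusted p = 1.52e-05), and 0.84 ± 0.186 between TO and WT (adjusted p = 0.00133). Its mean was lowest in TO-p among the proliferating groups. Hsp90b1 differed by 0.84 ± 0.147 between TO and OT (adjusted p = 9.23e-05), rising in one line and falling in the other. Dnajb11 and Creld2 each differed by 0.7 between TO and OT (adjusted p = 6.23e-05 and 0.000507), and by 0.63 and 0.7 between TO and WT (adjusted p = 0.000369 and 0.000856). Hspa5 differed by 0.48 between TO and OT (adjusted p = 0.00179) and was not called between TO and WT (0.29, adjusted p = 0.0558). Manf differed by 0.52 from WT in both TO (adjusted p = 0.00205) and OT (adjusted p = 0.00103). Mbtps2 differed by 0.73 between TO and OT (adjusted p = 0.000745), but its probe was well above background in 2 of 4 TO-d samples and its second probe gave 0.16 (adjusted p = 0.165). In the other direction, Dnajc10 differed by -0.87 ± 0.111 between TO and OT (adjusted p = 2.3e-06) and by 1.33 ± 0.105 between OT and WT (adjusted p = 5.54e-09). Atf6 differed by -0.74 (adjusted p = 0.000375; second probe 0.05) and Edem2 by -0.63 (adjusted p = 0.000155) between TO and OT.

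Against WT, which both contrasts share, Sel1l, Pdia5 and Derl1 had the largest negative differences. Sel1l differed by -1 ± 0.264 for TO (adjusted p = 0.0052) and -0.76 ± 0.243 for OT (adjusted p = 0.0191), the latter lost without any of 4 samples, OT-p 2 or 3, WT-d 4 or WT-p 1 (adjusted p up to 0.0709). Pdia5 differed by -0.94 ± 0.151 (adjusted p = 7.62e-05) and -0.76 ± 0.14 (adjusted p = 0.000211). Derl1 differed by -0.87 ± 0.0982 (adjusted p = 1.9e-06) and -0.83 ± 0.0907 (adjusted p = 4.32e-07). Dnajb9 differed by -0.44 for TO and -0.45 for OT, and Erp44 by -0.52 and -0.48. On the second brightest probe the difference for TO was 0.27 for Sel1l, 0.12 for Derl1 and 0.18 for Erp44, and that of Erp44 for OT was 0.51, so these differences vary by probe. For OT the second probes of Sel1l, Derl1 and Dnajb9 gave -0.07, -0.03 and -0.17 (adjusted p = 0.682, 0.879 and 0.173). Sec61b differed by 0.56 between OT and WT (adjusted p = 1.34e-05). Xbp1 was called between OT and WT (0.48, adjusted p = 0.00525), and Herpud1 and Sdf2l1 were called in none of the 3 contrasts (adjusted p from 0.44 to 0.968). Between TO and OT, single samples decided the calls of Fkbp2 (0.37; TO-p 2 or OT-p 2, adjusted p up to 0.0653), Pdia3 (0.36; 3 samples, TO-d 4 or TO-p 1 or 2, adjusted p up to 0.0814), Ssr1 (0.29; 4 samples, up to 0.134), Hyou1 (0.32; 7 samples, up to 0.134), Creb3l2 (-0.49; 12 samples, up to 0.095; second probe -0.41, adjusted p = 0.166) and Canx (-0.32; 14 samples, up to 0.118).

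The 10 tested members with an ERSE or ERSE-II are set beside the 26 tested members with a window and neither, as a description. In TO-d against OT-d, 7 of the 10 were higher (median 0.35), against 10 higher and 4 lower of the 26 (median 0.16). Of all genes, 18.9% were higher and 20.8% lower there. In TO-d against WT-d, 6 were higher (median 0.4), against 3 higher and 5 lower (median -0.06), with 23% and 23.6% of all genes. In TO-p against OT-p, 3 were higher and 3 lower (median -0.01), against 12 and 6 (median 0.18), with 29.8% and 26.2% of all genes. In OT-d against WT-d, 1 was higher and 1 lower (median 0.03), against 4 and 14 (median -0.23), with 26.6% and 25.1% of all genes. In OT-p against WT-p, 4 were higher and 1 lower (median 0.17), against 2 and 10 (median -0.05), with 20.5% and 23.8% of all genes. For the medium response of TO against that of OT, 6 were higher and 1 lower (median 0.42), against 4 and 4 (median -0.11). Of all genes, 17.2% were higher and 22.7% lower in that contrast. Within OT, 2 of the 10 rose and 6 fell with the medium (median -0.28), against 12 and 8 (median 0.15). Within TO, 5 rose and 3 fell (median 0.12), against 7 and 7 (median -0.01). Over all genes 36.3% rose and 31% fell in OT, and 26.4% and 25.7% in TO. Whether the element has a part in these values was not tested.

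The PERK and Atf4 branch, a list of 12 further genes, had the largest median change between TO and OT among the lists of related genes. The lists were chosen with earlier results of these data known, so this rank is a description. In TO-d against OT-d 9 were higher and 1 lower (median 0.91), 83.3% called against 39.7% of all genes, and in TO-p against OT-p 5 were higher and 2 lower (median 0.58), 58.3% against 56%. Trib3, a pseudokinase induced by Atf4 and Ddit3, read 14.68, 14.65, 14.82 and 14.76 in TO-d against 12.32, 12.17, 12.16 and 12.33 in OT-d, with no overlap (2.47, 5.54-fold, adjusted p = 3.96e-13), and was higher in TO-p (1.49, adjusted p = 3.63e-10). Ddit3 (CHOP), a transcription factor of prolonged ER stress, was higher in TO-p (1.17, adjusted p = 2.56e-08) and in TO-d (1.16, adjusted p = 1.71e-07). Atf4 was higher in TO-d (0.94, adjusted p = 3.97e-08), at 12.84 to 13.22 against 11.89 to 12.28, and was not called in TO-p (0.18, adjusted p = 0.0916). Nupr1 and Chac1, targets of this branch, were higher in TO-d by 1.85 and 1.82. Eif2ak3, the kinase itself, was lower in TO-d relative to OT-d (-0.2, adjusted p = 0.0215), and gave 0 in TO-p against OT-p (adjusted p = 0.987). Against WT the list had 3 higher and 2 lower in TO-p (41.7% called, 34.7% of all genes) and 6 higher and 2 lower in TO-d (66.7% and 46.6%). It had 1 higher and 6 lower in OT-p (58.3% and 44.2%), and 9 lower in OT-d (75% and 51.7%, median -0.61). Ero1a, the oxidase that recharges disulfide isomerases, was lower than in WT-d both in TO-d (-1.63, adjusted p = 2.99e-05) and in OT-d (-2.31, adjusted p = 3.49e-08).

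Over the 93 tested genes of all 7 related lists, 28 were higher and 17 lower in TO-d relative to OT-d (48.4% called, 39.7% of all genes), and 28 higher and 26 lower in TO-p relative to OT-p (58.1% and 56%). Against WT, 16 were higher and 29 lower in TO-d (48.4% and 46.6%), and 14 higher and 40 lower in OT-d (58.1% and 51.7%). Of 21 other oxidoreductases and folding factors, 7 were higher and 5 lower in TO-d relative to OT-d. They included Fkbp11 (0.9, adjusted p = 1.43e-09), Ero1b (0.83, adjusted p = 2.53e-07) and Sil1, an exchange factor of Hspa5 (0.79, adjusted p = 0.00148), on the higher side, and Cnpy2 (-0.66) and Prdx4 (-0.55) on the lower. Of 12 genes of N-glycosylation and glucose trimming, 4 were higher in TO-d relative to OT-d, with Uggt1, the folding sensor of the calnexin cycle, at 0.51. Among 16 other degradation genes, 3 stood higher and 8 lower in TO-p relative to OT-p. Vcp, the ATPase that extracts proteins from the ER, was lower in TO-p (-0.53, adjusted p = 1.57e-07) and TO-d (-0.5, adjusted p = 2.04e-06) than in OT, and higher in OT-p (0.7) and OT-d (0.98) than in WT. Among 12 other translocon and signal peptidase genes, 2 stood higher and 4 lower in TO-d relative to OT-d, and 6 were lower in TO-d relative to WT-d.

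Members with several probes allow a check of the brightest one. Among the other probes of the members called in TO-p against OT-p, 27 of 32 ran the same way, and 23 of 25 did in TO-d against OT-d. The share was lower for the medium response, with 29 of 37 in WT, 27 of 36 in OT and 17 of 21 in TO. In TO-d against OT-d the other probes of Dnajc10, Hsp90b1 and Sel1l ran the same way, though the dimmest were at -0.18 for Dnajc10 and 0.06 for Sel1l and were not called, and the genes with a called opposite probe are named beside their values.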

How the data were processed

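The 24 samples (6 groups of 4), from 0.2 ug of total RNA each per the labels' protocols, were labelled and hybridised in pairs of different dye to 12 Agilent arrays. Replicates 1 and 2 of each group carried Cy5, replicates 3 and 4 Cy3. The deposited values are spot intensities, read, per the file headers, with version 10.5.1.1 of Agilent's Feature Extraction, and the headers place probes on mm8. The authors' series table holds the processed intensity of each sample on a linear scale, and was used as an alternative. How it was scaled is not given in the sources used here; its columns have medians of 102 to 107.7 and follow their own dye (Spearman at least 0.9972, against at most 0.9753 for the other dye).

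Mean and background signals were corrected by normexp with an offset of 50, after the 1.81% of local backgrounds marked as outliers had been replaced. Control spots were then dropped, and loess within arrays and Aquantile between arrays were applied. Outlier spots (0.294% of values) were left out. In limma 3.58.1 (R 4.3.3, statmod 1.5.0) group means and dye were fitted with the array as a random block (correlation 0.432). A gene was read from its brightest probe and tested if at least 1 group had that probe well above background throughout its 4 samples. The number of arrays limits the precision. The fit was tested on simulated data. Alternatives were other scalings, an offset of 10, no filter on dim probes, the second brightest probe where a gene had several, other covariates, no array correlation, averaging of samples whose codes differ by a letter b, and leaving out each sample.

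Of 41174 probes, 24375 were named by accession, 6301 by symbol and 2426 by synonym through RefSeq, and 8072 kept the file's name. Members called with groups that do not overlap are described in full, up to 4 per direction and pair of groups, with 14 members always described, up to 3 per direction for differences in medium response, and up to 3 per direction for related lists plus Ddit3, Atf4, Trib3, Ero1a and Eif2ak3. Others are summarised. Members and lists were chosen with earlier results of these data known.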

Additional observations from a re-analysis of the deposited data

Results flagged for a closer look

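In 14 of 168 groups of 4 samples, 1 sample lay apart from the others by a share of the group's range above Dixon's 95% critical value, where chance gives about 1 in 20 groups. For the chaperones these were Hspa5 in TO-d 3, low at 15.05, Hsp90b1 in WT-d 4, high at 15.85, and Manf in WT-p 3, high at 13.11. For sensors and factors they were Xbp1 in OT-p 3, high at 11.26, and Ern1 in TO-p 1, high at 8.71. Among isomerases, Pdia5 in OT-p 3 was high at 10.79, Fkbp2 in WT-p 3 high at 13.55 and Pdia6 in OT-p 3 low at 14.89. Among degradation genes, Herpud1 in TO-d 4 was high at 13.61, Derl1 in WT-p 2 low at 12.87, Os9 in TO-p 1 low at 11.45 and Os9 in OT-d 4 high at 13.28. Of translocon genes, Sec61b in TO-p 2 was low at 15.17 and Ssr3 in WT-d 3 low at 13.01.

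The medium response differed between lines in the interaction contrast of limma for the following members, the furthest apart in each direction. Between TO and OT the differences were 1.22 for Dnajc3, 0.84 for Hsp90b1, 0.73 for Mbtps2, -0.87 for Dnajc10, -0.74 for Atf6 and -0.63 for Edem2. Between TO and WT they were 0.84 for Dnajc3, 0.7 for Creld2, 0.63 for Dnajb11, -1 for Sel1l, -0.94 for Pdia5 and -0.87 for Derl1. Between OT and WT they were 1.33 for Dnajc10, 0.56 for Sec61b, 0.52 for Manf, -0.83 for Derl1, -0.76 for Pdia5 and -0.76 for Sel1l. All these values are from the brightest probe of each gene. On the second brightest, the difference of Atf6 (TO against OT) and those of Derl1 and Sel1l (TO against WT) changed sign. Those of Mbtps2 (TO against OT) and of Derl1 and Sel1l (OT against WT) were not called on it.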

How the results depend on the processing

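The count of members called stayed within 1.5 times its value except in 3 comparisons. For TO-p against WT-p it went from 18 to 11 with the second brightest probe of each gene that had several. It went to 9 with the samples averaged whose codes differ by the letter b. With those samples averaged it went from 17 to 11 for the medium response of TO against that of OT and from 19 to 12 for TO against WT. That averaging leaves 3 values per group. Leaving out each sample in turn gave 25 to 28 members in TO-p against OT-p, 21 to 27 in TO-d against OT-d, 15 to 22 in TO-p against WT-p, 15 to 20 in TO-d against WT-d, 15 to 20 in OT-p against WT-p and 19 to 25 in OT-d against WT-d. For the medium response it gave 31 to 35 in WT, 22 to 26 in TO and 30 to 35 in OT, and for its differences 12 to 18 (TO against OT), 15 to 22 (TO against WT) and 11 to 18 (OT against WT). With the replicate number as a block the counts were, in the same order, 27, 25, 17, 19, 19, 23, 34, 24, 33, 16, 18 and 13. The numbers do not pair samples: deviations of same-numbered samples correlated at -0.3 to 0.3, with at most 2 of 4 pairs over 0.1. Within slides the members' median moved by more than the replicate spread on some slides, to 0.01, 0.25 and 0.03 (TO-p against OT-p), -0.04 and 0.25 (TO-p against WT-p), -0.04 (OT-d against WT-d), 0.09 and 0.06 (WT medium response) and -0.11 (OT medium response). These medians have no dye term. TO-p and WT-p carried different dyes on slides 1 and 2, as did OT-d and OT-p on slide 2 and OT-d and WT-d on slide 3. Slide and dye cannot be told apart in those values.

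Of 197 called changes of the fully described members, 155 kept direction and call with loess alone and 187 to 195 under the other scalings, offset, filter, covariates and no array correlation, and none of these reversed a change. With the b samples averaged 170 did. Choice of probe was the setting that turned directions: of 194 changes, 145 kept their call with the second brightest probe, 28 lost it and 21 reversed. Members with 1 probe were read from that same probe again. They include Hspa5, Sdf2l1, Creld2, Manf, Pdia4, Pdia5, Herpud1, Sec61b, Ern1 and Xbp1. The 145 therefore includes changes for which this setting could not test the choice of probe. The reversed values were -0.06 (TO-p against OT-p), -0.01 (TO-p against WT-p), 0.11 (TO-d against WT-d), 0.05 (OT-p against WT-p), 0.02 (OT-d against WT-d) and 0.12 (medium response, TO against WT) for Derl1, and 0.06 (TO-p against WT-p) for Edem1. For Erp44 they were 0.17 (TO-d against WT-d), 0.9 (OT-d against WT-d), 0.18 and 0.51 (medium response of TO and of OT against WT), and for Txndc5 0.09 (OT-d against WT-d), -0.08 and -0.1 (medium, WT and OT). For Atf6 they were -0.36 and -0.37 (medium, WT and OT) and 0.05 and 0.04 (medium response of TO against OT and WT), for Creb3l2 -0.55 and -0.14 (medium, TO and OT), and for Sel1l 0.27 (medium response, TO against WT). The cause was not tested. The median of all genes moved past 0.1 with the processed signals (0.21 for WT-d against WT-p, -0.12 for the medium response of TO against WT) and with loess alone (0.11 for TO-d against WT-d, 0.14 and 0.11 for the medium response of TO and of OT against WT). Dim probes such as those of Mbtps2 and Derl3 limit what can be said of these genes.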

Other observations

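Of 14 genes of the COPII coat and its cargo receptors, 5 were higher and 5 lower in TO-p relative to OT-p, 2 higher and 3 lower in TO-d relative to OT-d, and 2 higher and 7 lower in OT-d relative to WT-d. Kdelr3, a receptor that returns ER proteins from the Golgi, read 8.44, 9.88, 8.54 and 9.34 in WT-p and 11.96, 11.42, 11.43 and 11.76 in WT-d, a rise of 2.49 in limma (adjusted p = 6.65e-09). It reached 9.3 to 9.99 in OT-d and 9.25 to 9.53 in TO-d, below all WT-d samples (-1.82 and -2.23, adjusted p = 9.3e-07 and 5.09e-07). Its change of medium in TO was 0.08 (adjusted p = 0.803). Sec24d, a cargo-binding coat subunit, was higher in TO than in OT by 0.77 in proliferation and 0.58 in differentiation medium.

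Of 6 other transcription factors of the ER membrane, 3 were higher and 2 lower in TO-p relative to OT-p, and 1 was higher and 1 lower in TO-d relative to OT-d. Nfe2l1, a regulator of proteasome genes, read 14.21, 14.32, 14.64 and 14.1 in TO-p against 12.97, 12.74, 13.17 and 13.18 in OT-p (1.3, adjusted p = 1.28e-08), and was higher in TO-d (0.74, adjusted p = 0.000216), where 1 OT-d sample was left out. Creb3l3 read 8.44 to 8.71 in TO-p against 6.71 to 6.91 in OT-p (1.7, adjusted p = 6.3e-06) and was not called in TO-d against OT-d (-0.19, adjusted p = 0.633). Creb3 was lower in TO than in OT (-0.68 and -0.65) and rose with the medium in WT, TO and OT (0.91, 0.88 and 0.85).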
